A study of Mus musculus with 6 samples.

Results

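Of the 31053 genes listed in the count tables, 10 were followed through the retina of mice with oxygen-induced retinopathy (OIR). They were Egfl7, Anxa2, Tnfrsf12a, Tesc, Fscn1, Nxph4, Sez6l, Apba2, BC055402 and Zfp467. All 10 were found by symbol, and they were picked because their summed counts in Müller glia differed between OIR and control retinas, so those differences are given as a description without a test. In Müller-like cells 8 of the genes had the higher level in OIR and 2, BC055402 and Zfp467, the lower one. Outside Müller glia the same contrast was tested in 22 pairs of gene and cell type, of which 1 was called. It was Zfp467, lower in OIR in cone bipolar-like cells too, and the call was lost without OIR replicate 2 and without OIR replicate 3.

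Single-cell RNA was counted as unique molecular identifiers (UMIs) in 3 OIR and 3 control samples, each pooled from 2 mice. OIR pups breathed 75% oxygen from postnatal day 7 to day 12 and then room air for 5 days, controls stayed in room air, and retinas of both groups were taken at day 17. The labels name no strain, genotype or sex. They give the source as retinal endothelial cells of adult animals, yet rod-like cells were 25404 of the 38569 cells kept, and the barcodes hold the cell types of the whole neural retina at day 17.

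Müller glia span the retina from the inner to the outer limiting membrane. They recycle glutamate and retinoids, buffer potassium and water, and under low oxygen they release growth factors for vessels. In OIR high oxygen halts and prunes the growing vessels, the return to room air leaves the inner retina short of oxygen, and vessels then grow back in an abnormal way. Injury makes Müller glia reactive, a state in which their cytoskeleton, secreted proteins and receptors change.

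The Müller-like cells numbered 3894, 2270 from OIR and 1624 from control samples. They were split at 4000 UMIs, into 2216 cells with more (high-UMI cells) and 1678 with fewer (low-UMI cells). Near the limit 89 cells had 3500 to 4000 UMIs and 72 had 4000 to 4500. In the high-UMI cells all 10 Müller markers had UMIs in every sample, and their summed level ranged from 27056 to 32350 CPM (UMIs per 1000000 UMIs) in OIR and from 29374 to 37835 CPM in control samples. The high-UMI cells numbered 701, 250 and 253 in OIR replicates 1 to 3 and 631, 201 and 180 in control replicates 1 to 3. The level of a gene is hereafter its UMIs summed over the cells of a type in 1 sample, divided by all UMIs of those cells and given as CPM.

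The samples differed in ways that touch every comparison. Both replicate 1 samples were deeper, with median UMIs per kept cell of 3958 and 4850 against 1449.5 to 2354 in the other 4. By Xist and Y-linked UMIs control replicates 2 and 3 were from female mice and the other 4 samples from male mice, so control replicate 1 was the 1 male control. Any 2 libraries shared between 3 and 17 barcodes, at most 0.261% of the smaller library. No OIR sample was female, so that in the comparison with the female controls sex and oxygen cannot be told apart.

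Markers of some other cell types were also apart between the groups in Müller-like cells. In high-UMI cells the 7 RPE markers summed to 565 to 676 CPM in OIR and 430 to 488 CPM in controls, and the 5 astrocyte markers to 999 to 1216 CPM in OIR and 1350 to 1564 CPM in controls. The 10 cone bipolar markers were at 412 to 523 CPM in OIR and 247 to 413 CPM in high-UMI controls, where the groups touched, and at 302 to 491 CPM against 259 to 299 CPM in low-UMI cells, where they did not overlap. Astrocyte markers were lower in OIR in low-UMI cells as well, at 1039 to 1356 against 1421 to 1678 CPM. The 7 rod markers had larger sums, at 3442 to 4325 CPM in OIR and 3549 to 6902 CPM in controls in high-UMI cells. In low-UMI cells they were at 7311 to 8841 against 8818 to 12419 CPM, and the groups overlapped in both. Whether these sums came from other cells or from the Müller-like cells themselves was not tested. Nor was the part of RNA from other cells in the values that follow.

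The membrane and secreted proteins among the genes come first. Egfl7 encodes a secreted protein with EGF-like domains, made mainly by endothelial cells and able to bind Notch receptors. In high-UMI Müller-like cells its level was 53.1, 32.7 and 48.3 CPM in OIR replicates 1 to 3 and 6.13, 6.43 and 8.53 CPM in controls. Every OIR sample lay above every control sample, and the fitted log2 fold change was 2.68 (SE 0.26). In low-UMI cells the OIR levels were 32.8, 72.4 and 57.3 CPM and the control levels 6.38, 4.12 and 10.98 CPM, and the groups were again apart.

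Egfl7 lies at chr2:26580014-26593120 on the plus strand (GRCm38, GENCODE M21), and hosts Mir126a. Its span shares 6482 bases with Gm20532 on the same strand, whose count was 0 UMIs in the high-UMI cells of all 6 samples. In the few endothelial-like cells Egfl7 stood at 1164, 864 and 145 CPM in OIR, from 25, 3 and 7 cells, and at 1616, 1545 and 1630 CPM in controls, from 143, 4 and 15 cells. Too few cells were present for a test there.

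Because Egfl7 is an endothelial gene, endothelial markers were read in the same Müller-like cells. The summed level of 9 endothelial markers was 1021 to 1323 CPM in OIR and 925 to 1063 CPM in controls, and nearly all of it was Kdr and Flt1. Cldn5, which defines endothelial cells, had 6, 0 and 0 UMIs in OIR and 23, 0 and 0 in controls. Cdh5 had 4, 0 and 0 UMIs in OIR and 1, 1 and 0 in controls, while Tie1 and Tek were at 0 in all OIR samples. Pecam1 had 12, 7 and 7 UMIs in OIR and 4, 4 and 3 in controls, and Ramp2 had 40, 16 and 11 in OIR and 89, 27 and 14 in controls, in CPM 1.65 to 2.64 against 0.791 to 1.97 for Pecam1, which overlapped, and 4.15 to 5.62 against 9.18 to 17.6 for Ramp2, which did not. Of the 2216 high-UMI cells, 2142 held no UMI of Cldn5, Pecam1, Cdh5 or Tie1, and in these all 10 genes kept their direction. So few cells were left out that a change of direction could hardly occur. How much of the Egfl7 difference came from RNA of other cells was not tested.

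Tnfrsf12a encodes Fn14, the receptor of the cytokine TWEAK, which is induced in injured tissue. The gene lies at chr17:23675445-23677468 on the minus strand. Its level in high-UMI cells was 141, 92.5 and 126 CPM in OIR and 13.2, 22.3 and 23.6 CPM in controls. The groups were far apart, with a mean of 120 ± 24.7 CPM against 19.7 ± 5.64 CPM (SD, n = 3 each) and a log2 fold change of 2.62 (SE 0.26). In low-UMI cells it was 53.7, 81.1 and 94.5 CPM in OIR and 12.8, 4.12 and 22.0 CPM in controls.

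Anxa2 encodes annexin A2, a calcium-dependent phospholipid-binding protein that, with S100a10, holds tissue plasminogen activator and plasminogen at the cell surface. The gene lies at chr9:69453620-69491795 on the plus strand. Its level was 42.1, 21.8 and 26.04 CPM in OIR and 3.56, 1.29 and 3.93 CPM in controls, from 18, 3 and 6 UMIs in the latter. The log2 fold change was 3.31 (SE 0.39), the highest fitted value among the 10 in the high-UMI cells, and control replicate 2 stood at 3 UMIs. Low-UMI cells gave 32.8, 44.8 and 44.9 CPM in OIR and 1.28, 4.12 and 0 CPM in controls. An antisense gene, Gm16144, overlaps 2570 bases of Anxa2.

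Nxph4 encodes a neurexophilin, a secreted glycoprotein of a family that binds neurexins. The gene lies at chr10:127525473-127534559 on the minus strand. It was at 141, 113 and 147 CPM in OIR and 17.4, 26.1 and 40.01 CPM in controls. The lowest OIR sample was still above the highest control sample, and the log2 fold change was 2.28 (SE 0.26). In low-UMI cells its level was 34.3, 79.3 and 104 CPM in OIR and 11.5, 8.24 and 16.5 CPM in controls.

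Sez6l encodes a transmembrane protein of the Sez6 family, known as a substrate of the protease BACE1, at chr5:112419151-112577185 on the minus strand. Its level was 25.2, 23.9 and 38.5 CPM in OIR and 2.17, 3.86 and 5.90 CPM in controls, a log2 fold change of 3.00 (SE 0.34). The groups were apart. In low-UMI cells it was 25.4, 22.4 and 43.4 CPM in OIR, while control samples held 1 UMI in all, in replicate 3.

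Of the genes for intracellular proteins, Tesc, Fscn1 and Apba2 followed the same direction. Tesc encodes tescalcin, an EF-hand protein that binds the sodium-proton exchanger NHE1, at chr5:118027743-118061878 on the plus strand. It was at 39.6, 25.7 and 59.2 CPM in OIR and 6.13, 3.86 and 5.90 CPM in controls, so that OIR samples varied more among themselves than controls did, yet none came near them. The log2 fold change was 2.87 (SE 0.34). Low-UMI cells had 37.3, 58.6 and 72.8 CPM in OIR and 7.66, 8.24 and 0 CPM in controls.

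Fscn1 encodes fascin, which bundles actin filaments in cell protrusions, at chr5:142960343-142973185 on the plus strand. Its level was 175, 195 and 170 CPM in OIR and 68.2, 62.6 and 80.7 CPM in controls. Of the 8 genes that were higher in OIR it had the smallest fitted log2 fold change, 1.29 (SE 0.15), from a control level that was already well measured. Fscn1, Apba2 and Zfp467 were highest in cone bipolar-like cells, and the last of these was lower in OIR in Müller-like cells. The summed cone bipolar marker levels in Müller-like cells are given above. For Fscn1 low-UMI cells gave 109, 171 and 153 CPM in OIR and 43.4, 53.5 and 49.4 CPM in controls.

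Apba2 encodes Mint2, an adaptor that binds the amyloid precursor protein and Munc18, at chr7:64501706-64753878 on the plus strand. It was at 82.6, 78.0 and 112 CPM in OIR and 29.1, 30.9 and 30.2 CPM in controls. The 3 controls were almost level, and the log2 fold change was 1.53 (SE 0.17). In low-UMI cells Apba2 was at 70.1, 41.4 and 68.1 CPM in OIR and 28.1, 28.8 and 5.49 CPM in controls.

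Both remaining genes were lower in OIR. BC055402 is annotated as a lincRNA at chr1:57200645-57214993 on the minus strand. Its level was 12.4, 6.33 and 6.79 CPM in OIR and 119, 66.0 and 61.6 CPM in controls, a log2 fold change of -3.24 (SE 0.33). The male and deeper control, replicate 1, was the highest of the controls in high-UMI cells, as for Tesc and Zfp467. For Egfl7, Tnfrsf12a, Nxph4, Sez6l and Apba2 it was the lowest. All OIR samples were male, and the part of sex was not tested. For BC055402 low-UMI cells had 14.9, 10.3 and 3.097 CPM in OIR and 102, 86.5 and 32.9 CPM in controls.

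Zfp467 encodes a zinc finger protein known for directing marrow stromal cells towards fat rather than bone, at chr6:48427697-48445825 on the minus strand. It was at 47.9, 54.8 and 38.5 CPM in OIR and 116, 107 and 109 CPM in controls, a log2 fold change of -1.30 (SE 0.16). In low-UMI cells the values were 41.8, 41.4 and 51.1 CPM in OIR and 105, 70.0 and 60.4 CPM in controls, closer together than in high-UMI cells but still apart, with a log2 fold change of -0.95. Without control replicate 1 that value was -0.58 and in replicates 2 and 3 alone -0.56, both with only female controls left. In low-UMI cells without any UMI of the 9 endothelial markers it was -0.19 (SE 0.37). The 9 include Kdr and Flt1, nearly all of their sum in high-UMI cells, of which only 59 lacked all 9. This setting therefore cannot tell endothelial RNA from that of the Müller-like cells.

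The OIR and control samples did not overlap for any of the 10 genes in high-UMI cells, where 20% of the 11313 genes tested had groups that did not overlap. They did not overlap for any of the 10 in low-UMI cells either, where 15% of 7206 genes had such groups. Both classes were part of the choice of the genes and came from the same samples, so neither count is a separate observation.

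**Figure D1:**
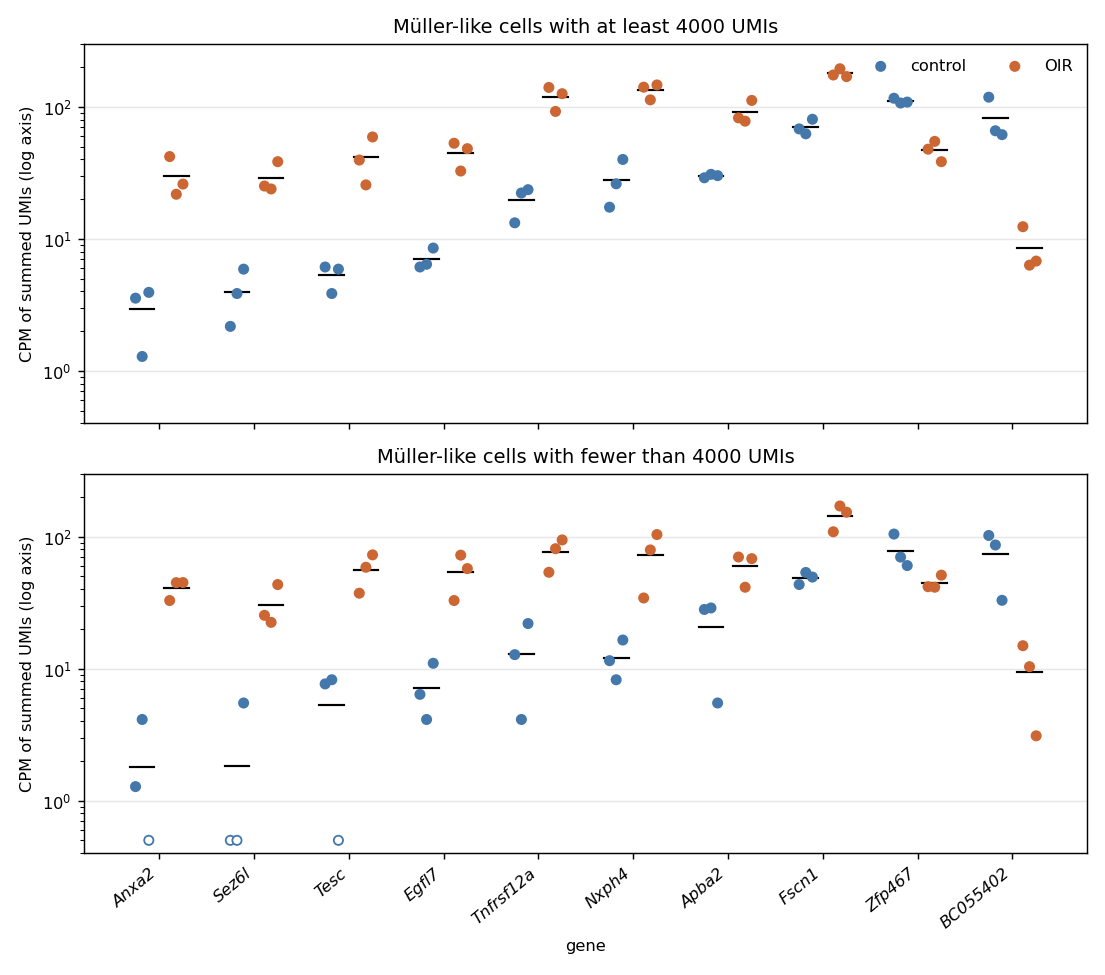
Level of each gene in Müller-like cells as CPM of summed UMIs (log axis), for cells with at least 4000 UMIs (top) and fewer (bottom). Each point is 1 sample, black lines are group means, and open points at the bottom mark samples with 0 UMIs. The 3 OIR samples lie above the 3 controls for 8 genes and below them for Zfp467 and BC055402.

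The share of cells with a UMI followed the levels. Nxph4 had a UMI in 57.3% ± 0.775 of high-UMI cells in OIR and in 19.0% ± 6.18 in controls (SD, n = 3 samples each). Thinned to 2000 UMIs per cell, with no cell left out, these shares were 20.6% ± 3.27 and 5.51% ± 1.99. For BC055402 the share was 7.80% ± 2.22 in OIR and 40.4% ± 6.51 in controls, and after thinning 1.38% ± 0.692 and 12.7% ± 5.06. Rods served as background, with median UMIs of 1403 to 3115.5 per sample against 7805 to 11722.5 in the high-UMI cells. There Nxph4 had a UMI in 0.914% to 3.01% of cells and BC055402 in 0% to 0.566%. Thinned, the BC055402 share of the 3 OIR samples was 0.791% to 2.14%, and in thinned OIR rods it was at most 0.0451%.

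Promoter windows are shown for the 3 genes in which a searched motif occurred, since they include both directions of difference. RefSeq windows (GRCm38.p6) were matched for 9 of the 10 genes, 12 windows in all, each the 250 bases before a transcript start. In them 5 motifs were searched on both strands: ACGTG (the core of the hypoxia response element), TGANTCA (AP-1), GGAATG (TEAD), TTCNNNGAA (STAT) and the NF-kappaB motif. Capitals mark the matches on the gene's strand, where CACGT is ACGTG and CATTCC is GGAATG on the other strand.
Anxa2: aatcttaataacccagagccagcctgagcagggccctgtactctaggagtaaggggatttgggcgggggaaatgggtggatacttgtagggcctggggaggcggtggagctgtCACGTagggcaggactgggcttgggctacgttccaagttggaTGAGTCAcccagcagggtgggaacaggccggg
Tesc: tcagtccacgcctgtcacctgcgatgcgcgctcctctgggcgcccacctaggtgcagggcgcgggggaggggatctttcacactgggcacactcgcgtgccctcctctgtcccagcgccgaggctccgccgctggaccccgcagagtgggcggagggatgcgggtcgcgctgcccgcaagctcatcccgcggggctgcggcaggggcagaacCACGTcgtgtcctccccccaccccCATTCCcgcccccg
BC055402: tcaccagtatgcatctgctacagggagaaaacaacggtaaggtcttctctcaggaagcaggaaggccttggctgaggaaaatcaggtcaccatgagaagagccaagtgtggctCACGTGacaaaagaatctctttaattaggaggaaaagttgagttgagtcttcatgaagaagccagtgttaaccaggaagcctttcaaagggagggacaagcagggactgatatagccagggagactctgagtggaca
The Anxa2 stretch is chr9:69453433-69453619 on the plus strand and stops before the annotated exon, the Tesc window is chr5:118027493-118027742 on the plus strand, and the BC055402 window is chr1:57214997-57215246 on the minus strand. ACGTG was in 3 of the 12 windows, 1 for each of these genes, and in 16.6% of all 32851 windows. In BC055402 it matched on both strands at overlapping positions. TGANTCA was in Anxa2 only, against 6.75% of all windows, and GGAATG in Tesc only, against 12.6%. TTCNNNGAA and the NF-kappaB motif, in 7.02% and 1.41% of all windows, were not in the 12. A match is a run of letters, and binding was not measured.

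The genes differed in where else they were found. In control retinas Tnfrsf12a, Nxph4 and BC055402 had their highest mean level in high-UMI Müller-like cells among the 9 classes with enough cells in every sample, though Nxph4 was close to amacrine-like cells, at 27.8 ± 11.4 against 22.2 ± 12.5 CPM (SD, n = 3). Apba2, Fscn1 and Zfp467 were highest in cone bipolar-like cells, at 110 ± 25.4, 269 ± 21.6 and 139 ± 28.2 CPM. Anxa2 was highest in RPE-like cells, at 48.1 ± 45.4 CPM from 10 UMIs, and in microglia-like cells, at 19.6 ± 3.35 CPM. The mean of Tesc did not exceed 6.54 CPM in any of the 9. Egfl7 and Sez6l were highest in amacrine-like cells, at 37.6 ± 5.28 and 52.2 ± 57.2 CPM, the latter with controls from 14.2 to 118 CPM. Vascular cells were too few to be among the 9, yet in controls the means of some genes were higher there. Anxa2 was at 482 ± 227 CPM in endothelial-like and 222 ± 10.5 CPM in mural-like cells. Tesc was at 67.9 ± 47.1 CPM in mural-like cells and Tnfrsf12a at 23.4 ± 9.83 CPM in endothelial-like cells, where Egfl7 is given above. In OIR, Müller-like cells came first among the 9 for Egfl7, Tnfrsf12a, Tesc, Nxph4 and BC055402. For Egfl7, Tesc and BC055402 the low-UMI and high-UMI cells were next to each other in that order and overlapped. Fscn1 and Apba2 in OIR Müller-like cells, at 180 ± 13.2 and 90.9 ± 18.5 CPM, stayed below cone bipolar-like cells, at 247 ± 16.99 and 119 ± 14.4 CPM, and for Apba2 the samples of the 2 classes overlapped.

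**Figure D2:**
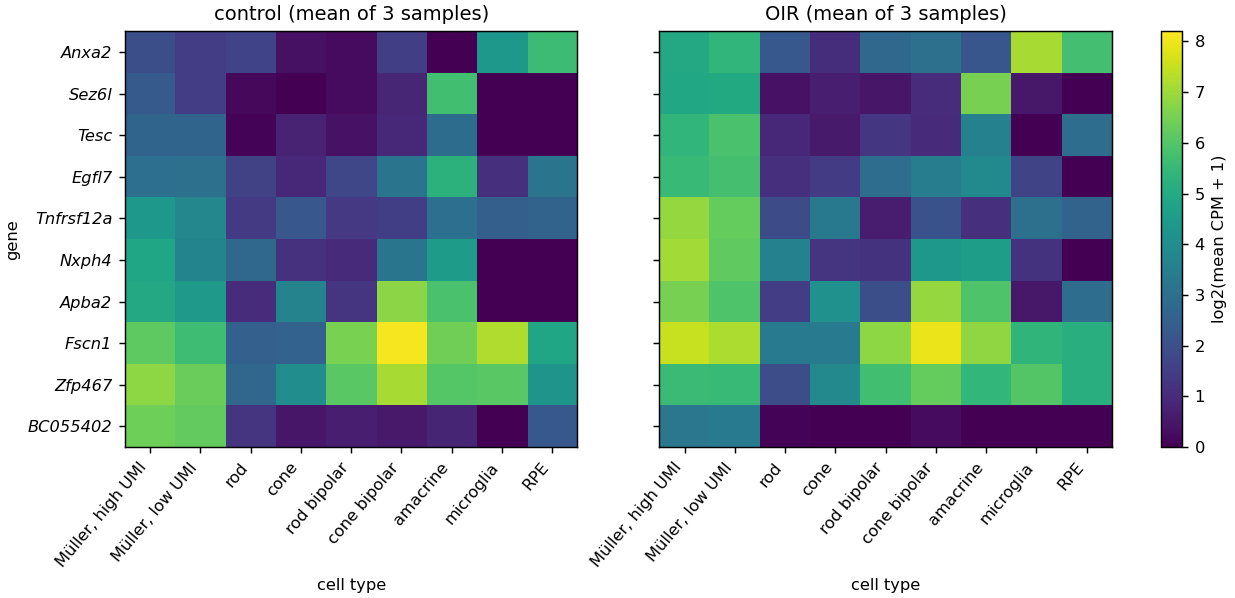
Mean level of each gene, as log2(mean CPM + 1) over 3 samples, in 9 cell classes (columns) in control (left) and OIR (right) retinas. BC055402 is seen in Müller-like cells and hardly elsewhere, while Fscn1, Apba2 and Zfp467 are also high in cone bipolar-like cells.

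The genes were chosen by their summed counts in Müller glia, which differed between OIR and control samples. The same contrast was tested in 7 other types: rod-, cone-, rod bipolar-, cone bipolar-, amacrine-, microglia- and retinal pigment epithelium (RPE)-like cells. These cells came from the same 6 samples, with the same split of sexes, so a call in them is not a separate observation. The part of Müller RNA in their values was not tested. Of 70 pairs of gene and type, 22 passed the filter on low counts, for 8 of the genes, and none for Tesc or BC055402. Called pairs had an adjusted p below 0.05 by edgeR's quasi-likelihood test and differed by 0.25 or more on the log2 scale. Of the 22 pairs 1 was called. All genes were called at 2.62% in rod-, 2.42% in rod bipolar-, 1.2% in cone-, 0.868% in cone bipolar-, 0.324% in microglia-, 0.0565% in RPE- and 0.0531% in amacrine-like cells.

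Zfp467 fell in cone bipolar-like cells, as it was lower in Müller-like cells. Its level was 78.1, 81.9 and 65.5 CPM in OIR and 172, 124 and 123 CPM in controls. The log2 fold change was -0.97 (SE 0.17, edgeR adjusted p = 0.0212), and the 3 OIR samples were below all controls. Of all genes in this type 0.351% were called lower. The call was lost without OIR replicate 2 (edgeR adjusted p = 0.111) and without OIR replicate 3 (edgeR adjusted p = 0.101). It held in the other 13 of 15 alternatives, where the log2 fold change lay between -1.27 and -0.73. The edgeR adjusted p was lowest with no filter, at 1.56e-06, and reached 0.0398 without OIR replicate 1. Cone bipolar-like cells pooled several clusters, and the mix of these per sample was not compared. The 10 Müller markers together were at 402 to 487 CPM in OIR and 304 to 559 CPM in control cone bipolar-like cells. The remaining types gave no call for Zfp467, with log2 fold changes of -1.08 (SE 0.42) in rod-, -0.54 (SE 0.32) in cone-, -0.49 (SE 0.19) in rod bipolar- and -0.04 (SE 0.33) in microglia-like cells. With sex as a term edgeR called it in rod bipolar-like cells too, at -0.78. As no OIR sample was female, that fit sets OIR against control replicate 1 alone.

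Nxph4 was at 16.9, 25.5 and 16.4 CPM in OIR cone bipolar-like cells and at 5.68, 3.43 and 15.1 CPM in controls. The log2 fold change of 1.40 (SE 0.37) did not pass (edgeR adjusted p = 0.113), nor did that of 0.77 (SE 0.26) in rod-like cells (edgeR adjusted p = 0.160). In both types samples with the same replicate number deviated together, and with the replicate as a block 3 pairs were called, adding Nxph4 in cone bipolar-like cells (log2 fold change 1.38, edgeR adjusted p = 0.0103) and in rod-like cells (0.78, edgeR adjusted p = 0.0247). In rod-like cells the summed Müller markers were also higher in every OIR sample, at 647 to 700.2 CPM against 358 to 620.5 CPM, and the part of Müller RNA in the rod values was not tested. The block called 4.99% of all genes in cone bipolar- and 10.7% in rod-like cells. Without the filter edgeR also called Nxph4 in cone bipolar-like cells, at 1.38 (adjusted p = 0.00138), and without control replicate 3 at 1.79 (adjusted p = 0.0342). Leaving out any other sample gave no call for it. With sex as a term, which sets OIR against control replicate 1 alone, its log2 fold change there was 1.65. The share of all genes called in these settings was not counted.

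Fscn1 passed in none of the types tested. In microglia-like cells it was at 67.5, 27.8 and 24.1 CPM in OIR and 97.0, 161 and 190 CPM in controls, a log2 fold change of -1.54 (SE 0.38) that did not pass (edgeR adjusted p = 0.103). In rod-like cells its log2 fold change was 0.89 (SE 0.29, edgeR adjusted p = 0.138) and in cone bipolar-like cells -0.16 (SE 0.13, edgeR adjusted p = 0.685). In replicates 2 and 3 alone, without the deep samples and the male control, all OIR samples were male and all controls female. There edgeR called Fscn1 in microglia-like cells at -2.69 (adjusted p = 0.0149) and in rod-like cells at 1.21 (adjusted p = 0.00622). The share of all genes called in that setting was not counted in these types. The summed Müller markers, which include Apoe, were at 42386 to 51947 CPM in OIR and 17241 to 20949 CPM in control microglia-like cells. The OIR values were above the 27056 to 32350 CPM of OIR high-UMI Müller-like cells themselves. The part of Müller RNA in the Fscn1 and Anxa2 values of microglia-like cells was not tested.

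**Figure D3:**
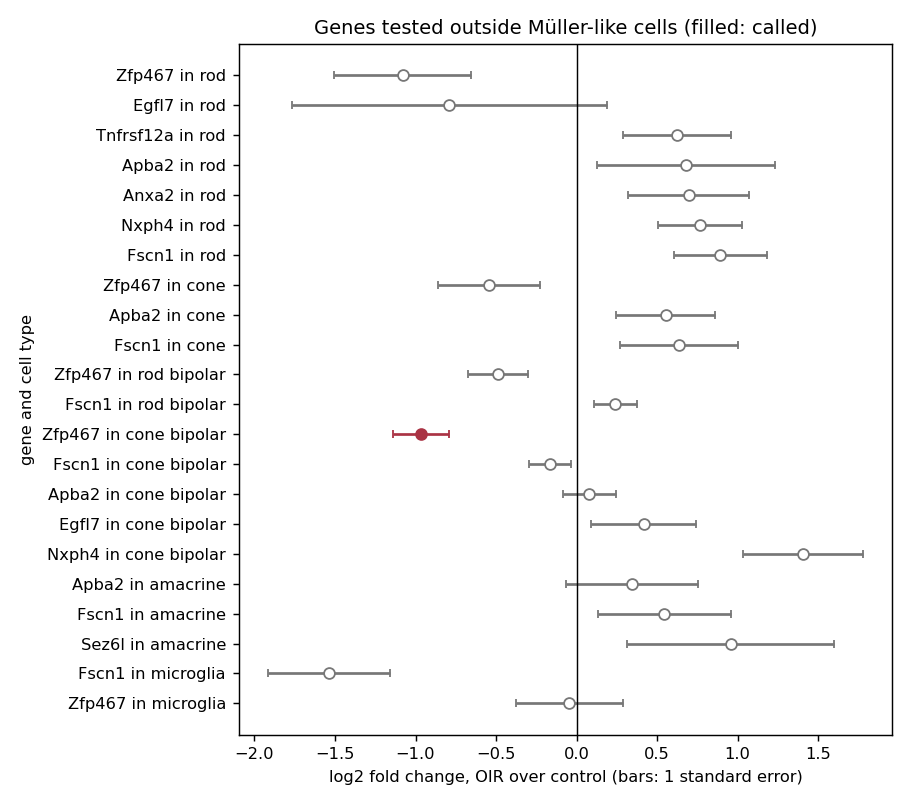
Fitted log2 fold change, OIR over control, of the 22 pairs of gene and cell type that were tested outside Müller-like cells. Points are edgeR estimates from 3 samples a group, bars are 1 standard error, and the filled point is the 1 call, Zfp467 in cone bipolar-like cells at -0.97.

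Anxa2 did not pass the filter in microglia-, cone bipolar- or rod bipolar-like cells. In microglia-like cells it was at 87.0, 283 and 44.2 CPM in OIR and 22.1, 20.98 and 15.8 CPM in controls, from 67, 51 and 11 UMIs against 13, 3 and 3. OIR samples spanned a wide range and did not overlap with controls. Without the filter edgeR called it there at a log2 fold change of 2.60 (adjusted p = 7.5e-09), in cone bipolar-like cells at 2.47 (adjusted p = 0.000710) and in rod bipolar-like cells at 4.04 (adjusted p = 1.77e-06). In rod bipolar-like cells OIR samples held 64, 7 and 0 UMIs and controls 3, 0 and 0, so the groups overlapped and replicate 1 of OIR held most of the UMIs. Also without the filter edgeR called Fscn1 in microglia-like cells at -1.48 (adjusted p = 0.000817) and BC055402 in rod-like cells at -4.28 (adjusted p = 0.0133), the latter from 2 UMIs in OIR and 30 in controls. How many of all genes were called without the filter was not counted in these types. Egfl7 in amacrine-like cells went the other way than in Müller-like cells, at 14.2, 17.2 and 10.7 CPM in OIR. Controls were at 38.0, 42.7 and 32.2 CPM, but OIR samples held only 4, 2 and 2 UMIs and the pair was not tested. In rod bipolar-like cells Egfl7 went the same way, at 4.83 to 8.15 CPM in OIR and 1.56 to 3.04 CPM in controls, from 47 and 18 UMIs. Tesc in rod-like cells did too, at 0.563 to 1.47 against 0 to 0.206 CPM, from 31 and 2 UMIs. Neither pair was tested.

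**Figure D4:**
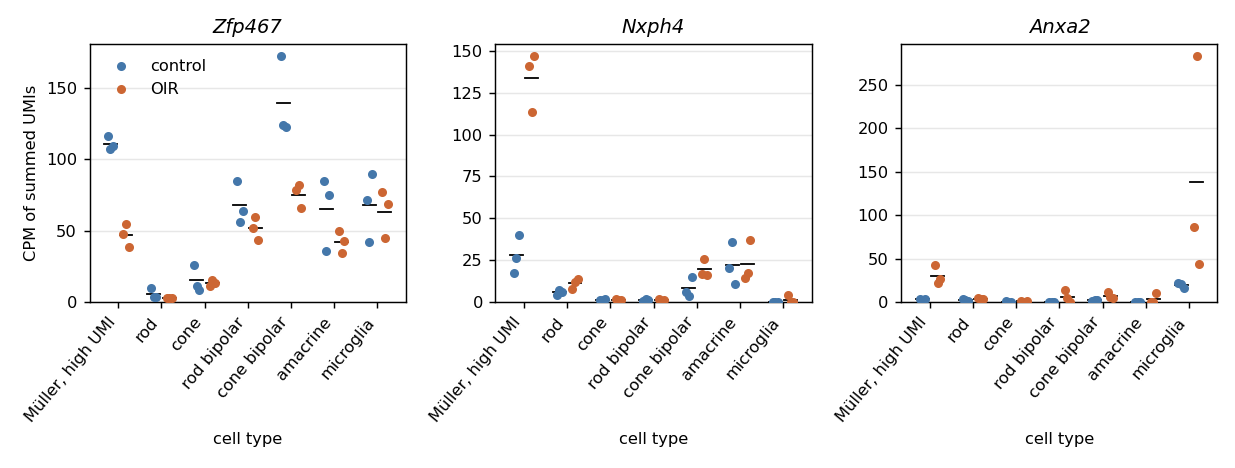
Level (CPM of summed UMIs) of Zfp467, Nxph4 and Anxa2 in high-UMI Müller-like cells and 6 other types. Each point is 1 sample and each line the mean of 3. Zfp467 is lower in OIR in Müller- and cone bipolar-like cells, and Anxa2 in OIR microglia-like cells runs from 44.2 to 283 CPM.

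The pathways of the genes were read from 8 lists of partners, 95 genes in all, none of them among the 10. The lists were chosen with earlier results of these data known, so the calls in them are not a separate test. In high-UMI Müller-like cells 71 passed the filter, 3 were called higher in OIR and 0 lower, where all genes were called higher at 1.51% and lower at 0.946% by edgeR. The 71 genes had a median of 0.03 on the log2 scale. At an unadjusted p under 0.05 edgeR had 10 of the 71 higher and 5 lower, beside 1688 of all 11313 genes in either direction. DESeq2 called 1 of the partner genes lower. On data simulated for this comparison false calls were more frequent than the nominal limit, and 62.5% of simulated 2-fold changes were recovered.

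Of the annexins, S100 partners and plasminogen activation genes, 11 passed and 2 rose. Plat, the tissue plasminogen activator that annexin A2 binds, was at 174, 155 and 136 CPM in OIR and 71.0, 71.1 and 62.3 CPM in controls (log2 fold change 1.12, SE 0.15, edgeR adjusted p = 0.00622). S100a11, an S100 protein that binds annexins, was at 161, 172 and 151 CPM in OIR and 54.2, 93.4 and 99.0 CPM in controls (0.93, SE 0.21, edgeR adjusted p = 0.0445). For neither gene did the groups overlap. S100a10, named above as the partner of annexin A2, was not called (log2 fold change 0.16, SE 0.21, edgeR adjusted p = 0.795). The S100a11 call was lost without any 1 of the samples other than control replicate 1, with adjusted p up to 0.146 by edgeR, while Plat was called in all 18 alternatives run for it.

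Of the actin bundling and cortex genes, 15 passed and 1 rose, and the median of the 15 was 0.34 (log2 fold change). Tagln2, the actin-binding transgelin 2, was at 196, 130 and 141 CPM in OIR and 41.7, 42.9 and 54.4 CPM in controls (1.72, SE 0.21, edgeR adjusted p = 0.00370), and it was called in all 18 alternatives.

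In the other 6 lists edgeR called none of the genes that passed. These were 10 of TWEAK and Fn14 signalling, the pathway of Tnfrsf12a, with a median of 0.05 on the log2 scale, and 12 of Notch signalling, with -0.23. They were also 5 of the sodium-proton exchangers and calcineurin homologous proteins, with -0.04, 4 of the neurexophilins, neurexins and neuroligins, with 0.02, 3 of the Sez6 family and BACE proteases, with -0.36, and 11 of the amyloid precursor protein adaptors, with -0.05.

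The genes most like each of the 10 were read as Pearson's r of log2(CPM + 1) over 54 sums of sample and type, among 14393 genes. The sums share libraries and their depth, and r is a description. The closest was Fam159b for BC055402 (r = 0.943), Grb14 for Sez6l (r = 0.905), Gm13889 for Nxph4 (r = 0.896), Pcdh9 for Apba2 (r = 0.892) and Tmem65 for Fscn1 (r = 0.889). It was Tle3 for Zfp467 (r = 0.884), Tppp3 for Tesc (r = 0.848), Selenof for Tnfrsf12a (r = 0.834), Hacd4 for Anxa2 (r = 0.821) and Adam11 for Egfl7 (r = 0.820). The second were Gm44929, Robo1, Lsamp, Tenm2, Marcksl1, Stx7, Apln, Kdelr3, Ltbr and Efnb2, in the same order.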

How the data were processed

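The authors deposited raw UMI counts per gene and barcode for 6 samples, made with Cell Ranger. The labels name the build mm10, the study's methods name a human one, and the gene list is of mouse. Barcodes with 500 to 5000 detected genes and up to 20% mitochondrial UMIs were kept, 38569 of 47631, with 5371 to 7470 per sample. Samples held 15788524 to 42606878 UMIs. Cells were integrated and clustered with Seurat 5.3.0 (CCA, 15 components, resolution 0.5) and clusters named from fixed markers. No doublets were removed in the primary analysis.

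Counts were summed per sample and type (at least 10 cells in every sample) and tested by the quasi-likelihood method of edgeR 4.0.16 after TMM scaling and filterByExpr, with Benjamini-Hochberg adjustment over all genes of a type and no covariates. Standard errors came from the same fits, and SDs are over 3 samples. Intervals on counts were not used. The tests were checked on data simulated for 3 types. The share of false calls was above the nominal limit in high-UMI Müller-like and rod-like cells and below it in microglia-like cells. Of simulated 2-fold changes 62.5%, 66% and 39% were recovered in these types, in that order, and of 4-fold changes 93%, 92.5% and 85.5%. A gene not called may thus still differ. The other types, cone bipolar-like cells among them, were not simulated. Alternatives were DESeq2 1.42.0, no filter, other cell filters, clustering without integration (scanpy 1.11.5), doublet removal, a replicate block, sex, replicates 2 and 3 alone, each sample left out and other UMI limits.

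Deviations from the group means were correlated between samples sharing a replicate number. All 3 r exceeded 0.1 in rod-like (0.482, 0.245 and 0.349), cone bipolar-like (0.346, 0.140 and 0.193) and RPE-like cells, but not in high-UMI Müller-like cells (0.185, -0.0603 and 0.199). The pairing is a hint from the data, since the labels give only the number. The 10 genes, the partner lists and the naming rule (all 10 genes, up to 3 called genes per list and direction, and the 2 most alike genes) were chosen with earlier results of these data known. Samples are pools of 2 mice, so p-values measure the spread between pools.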

Additional observations from a re-analysis of the deposited data

Results flagged for a closer look

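Fscn1 was flagged because its direction differed among the cell types in which its groups did not overlap. Only types without overlap entered this rule. The share of all genes without overlap was not counted in these types, and in high-UMI Müller-like cells it was 20%. Its log2 fold change was -1.54 in microglia-like cells, 0.89 in rod-like cells and 0.24 in rod bipolar-like cells, where OIR samples were at 105 to 118 CPM and controls at 84.3 to 103 CPM. None of the 3 passed the edgeR test, and the difference between the types was not tested. Summed Müller markers were higher in every OIR sample of rod- and microglia-like cells, as given above, and their part in these values was not tested. No sample was tested as standing apart within its group, since groups of 3 are too small for it.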

How the results depend on the processing

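In Müller-like cells the log2 fold changes of the 10 genes were computed 390 times under the alternatives. None reversed, 376 moved by less than the replicate spread and 14 by more. The genes were picked by this contrast in the same samples, so the tally shows only how far the values moved. Thinning lowered the share of high-UMI cells with a UMI of each gene, as fewer UMIs are read, and turned no direction. S100a11 lost its call with 5 of the 6 samples left out in turn. The replicate block changed no call other than those counted here. The number of called pairs outside Müller glia was 1. It was 7 of 66 with no filter, 3 with the replicate block and 4 in replicates 2 and 3 alone. With a sample left out it was 0 to 2. Sex as a term added Nxph4 in cone bipolar-like cells (log2 fold change 1.65) and Zfp467 in rod bipolar-like cells (-0.78) to the Zfp467 call. With the block the share of all genes called rose too, from 0.868% to 4.99% in cone bipolar- and from 2.62% to 10.7% in rod-like cells. Under the other settings that share was not counted in these types, so the counts show nothing particular to the 10 genes. Partner genes called higher were 5 with no filter and 5 with sex, and 2 to 3 with a sample left out. Partner genes called lower were 2 with no filter, with the replicate block and with sex, 1 with DESeq2, replicates 2 and 3 alone, clustering without integration, a limit of 3000 UMIs and no split by UMIs, and 0 to 1 with a sample left out. Of all genes in high-UMI cells, 171 were called higher and 107 lower. With no filter these were 407 and 345, sex gave 163 lower, and leaving out a sample gave 46 to 203 and 19 to 194. The lowest count of higher genes was without OIR replicate 1 and of lower genes without OIR replicate 3, and both highest counts were without control replicate 1. The causes were not tested. Without control replicate 1, and in replicates 2 and 3 alone, all controls were female and all OIR samples male. With sex as a term, the OIR effect is set against control replicate 1 alone, since no OIR sample was female. High-UMI cells with none of the 9 endothelial markers, 59 in all, could not be fitted. Low-UMI cells without them gave a value for 4 of the 10 genes. On the log2 scale these were 4.20 for Anxa2, 3.62 for Tnfrsf12a, 1.75 for Fscn1 and -0.19 for Zfp467. This filter has the limit given for Zfp467 above. Leaving out only cells with Cldn5, Pecam1, Cdh5 or Tie1 was chosen after seeing the data. Depth limits Anxa2, Sez6l and Tesc, whose controls held 27, 29 and 49 UMIs in high-UMI cells, and Sez6l in low-UMI controls, at 1 UMI.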

Other observations

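Among astrocyte-like cells, too few for a test, Anxa2 was at 86.7, 225 and 129 CPM in OIR and 29.6, 28.9 and 55.2 CPM in controls, the last 2 from 1 UMI each. In mural-like cells it was at 405, 335 and 1091 CPM in OIR and 211, 232 and 224 CPM in controls. Tnfrsf12a in endothelial-like cells was at 63.0 to 96.0 CPM in OIR and 17.4 to 34.8 CPM in controls, from 15 and 41 UMIs. Tesc in mural-like cells had 0 UMIs in all OIR samples and 57, 1 and 4 UMIs in controls, where the cells were more numerous, so a level below the limit that a count of 0 allows, 36.8 to 91.4 CPM, was not detectable in OIR.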
